A study of Mus musculus with 12 samples.

Results

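The p53 targets and growth arrest genes described here were 10 genes chosen by symbol from the 56748 genes of the count table: Cdkn1a, Cdkn1b, Mdm2, Ccng1, Gadd45a, Gadd45b, Gadd45g, Bax, Bbc3 and Btg2. All 10 were found, and all 10 passed the filter on low counts in every comparison. They were followed in bulk RNA-seq of 12 mouse livers, taken after a 24 h fast, with 4 livers in each of 3 genotypes. WT livers came from control mice whose Cpt1a, Cpt1b and Cpt2 genes were floxed but not deleted, as the sample labels have it, whereas the study describes Atf3 and Cpt2 floxed controls for measurements on these knockouts, so which floxed alleles the WT livers carried is not settled here. SKO livers lacked Cpt2, which encodes a mitochondrial carnitine palmitoyltransferase needed for the oxidation of long-chain fatty acids. DKO livers lacked both Cpt2 and Atf3, the gene of a stress-induced transcription factor of the bZIP family. The deletions were driven by an albumin-Cre transgene, which is active in hepatocytes. Which other cells of these livers kept the floxed genes was not measured here.

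In resting cells the transcription factor p53 is held low by MDM2, a ubiquitin ligase that is itself a p53 target. When DNA damage or other stress frees p53 from MDM2, p53 raises genes that stop the cell cycle, genes that repair DNA and genes that start apoptosis. Several of these genes, Cdkn1a and the Gadd45 family among them, also respond to nutrient stress, glucocorticoids and the integrated stress response without p53, and fasting itself raises some of them in liver.

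Each library held between 14710304 and 20030055 counts, so that a level of 3 counts, the limit that a count of 0 allows, stood for 0.145 to 0.195 CPM, the counts of a gene scaled to library size. This limit covers counting error only. Cpt2 lay at 199 to 250 CPM in WT livers and at 99.9 to 159 CPM in all 8 knockout livers, without overlap. Atf3 lay at 1.11 to 2.14 CPM in WT and at 14.5 to 54.0 CPM in SKO livers. In the DKO livers Atf3 was 7.91, 10.8, 13.5 and 0.266 CPM, below every SKO liver, but above every WT liver in 3 of the 4. The counts cover whole genes, so they do not show whether reads lay outside a deleted exon. A pair of libraries stood apart from the others: SKO replicate 3 and DKO replicate 4 held 18063 and 20855 Xist counts and 2 and 0 Y-linked counts, whereas the other 10 libraries held 2741 to 4294 Y-linked counts. By these counts the 2 livers were female, so the SKO and DKO groups held livers of both sexes. The study describes male mice for its RNA-seq. Results are therefore also given without these 2 livers. The 8 hepatocyte markers found, such as albumin, summed to between 40258 and 93617 CPM in all 12 livers. In bulk tissue, fewer cells of a type and less RNA per cell cannot be told apart.

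The sequences upstream of 5 of the genes are shown because they hold the p53 motif near a start site of genes that rose in SKO livers (Cdkn1a and Bax) and of a classical p53 target that did not pass the test (Mdm2), or lack it in this window (Gadd45b and Btg2, which also rose). Cdkn1a has a second annotated start site, whose window at chr17:29093519-29093768 held no match to any motif searched, so its printed window is the one with matches. Each is the 250 bases before a RefSeq start site in GRCm38.p6, read 5′ to 3′ on the gene's strand. They lie at chr17:29090729-29090978 (plus strand) for Cdkn1a, chr7:45466899-45467148 (minus strand) for Bax, chr10:117710759-117711008 (minus strand) for Mdm2, chr10:80929841-80930090 (plus strand) for Gadd45b and chr1:134079156-134079405 (minus strand) for Btg2. Capitals mark matches to the p53 half-site consensus, to TGATGCA or to TGACGTC, on either strand.
Cdkn1a: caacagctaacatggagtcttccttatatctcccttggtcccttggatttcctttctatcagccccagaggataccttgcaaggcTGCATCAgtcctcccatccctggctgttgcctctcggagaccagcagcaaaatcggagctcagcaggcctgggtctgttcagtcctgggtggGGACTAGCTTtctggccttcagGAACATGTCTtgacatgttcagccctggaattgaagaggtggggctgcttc
Bax: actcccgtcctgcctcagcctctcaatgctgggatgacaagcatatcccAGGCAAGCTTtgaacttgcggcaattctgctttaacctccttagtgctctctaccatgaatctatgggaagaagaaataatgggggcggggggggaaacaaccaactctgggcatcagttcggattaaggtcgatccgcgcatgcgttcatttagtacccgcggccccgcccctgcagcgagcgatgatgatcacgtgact
Mdm2: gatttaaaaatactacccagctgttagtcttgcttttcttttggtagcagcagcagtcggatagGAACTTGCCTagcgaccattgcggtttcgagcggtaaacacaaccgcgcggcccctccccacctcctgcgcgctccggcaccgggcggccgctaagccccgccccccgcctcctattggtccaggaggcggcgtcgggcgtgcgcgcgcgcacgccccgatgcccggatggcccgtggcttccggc
Gadd45b: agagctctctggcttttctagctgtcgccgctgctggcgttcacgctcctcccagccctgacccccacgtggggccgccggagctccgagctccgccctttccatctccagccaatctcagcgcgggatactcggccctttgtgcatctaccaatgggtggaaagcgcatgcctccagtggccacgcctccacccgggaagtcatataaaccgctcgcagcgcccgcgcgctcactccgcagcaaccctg
Btg2: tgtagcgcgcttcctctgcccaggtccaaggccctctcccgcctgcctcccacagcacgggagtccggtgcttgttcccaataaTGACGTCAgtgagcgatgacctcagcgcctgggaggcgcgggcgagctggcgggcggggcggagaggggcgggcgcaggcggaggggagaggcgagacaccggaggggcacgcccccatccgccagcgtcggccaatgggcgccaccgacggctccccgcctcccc

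The 10 genes had 13 such windows, with 3 for Bbc3 and 2 for Cdkn1a. The p53 half-site was found in 5 of the 13, those of Bax, Mdm2, Ccng1 and Gadd45a and 1 of Cdkn1a. Of all 32851 RefSeq windows of this length, 7.13% held it. In the Cdkn1a window it stood at 73 to 64 and again at 51 to 42 bases before the start site. It stood at 201 to 192 bases upstream of Bax and at 186 to 177 bases upstream of Mdm2. TGACGTC, the core of the cyclic AMP response element that ATF proteins can bind, was found upstream of Btg2 and in 2.78% of all windows; the 2 matches there, 1 on each strand, overlap. TGATGCA, the core of the composite element bound by C/EBP and ATF proteins, was found upstream of Cdkn1a and Gadd45g and in 2.68% of all windows. TGANTCA, the AP-1 core, was found upstream of none of the 10 genes and in 6.75% of all windows. These are matches of letters, not binding sites.

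The first question was what loss of Cpt2 did to these genes. In SKO livers 4 of the 10 genes were higher than in WT and none was lower (edgeR quasi-likelihood test, adjusted p under 0.05). Of all 14261 genes tested, 32.1% passed this test, 16.7% as higher and 15.4% as lower. The genes that rose were the cell cycle inhibitor Cdkn1a, the stress sensor Gadd45b, the antiproliferative gene Btg2 and the pro-apoptotic gene Bax. The median log2 fold change of the 10 genes was 0.24, against 0.031 over all genes tested.

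**Figure D1:**
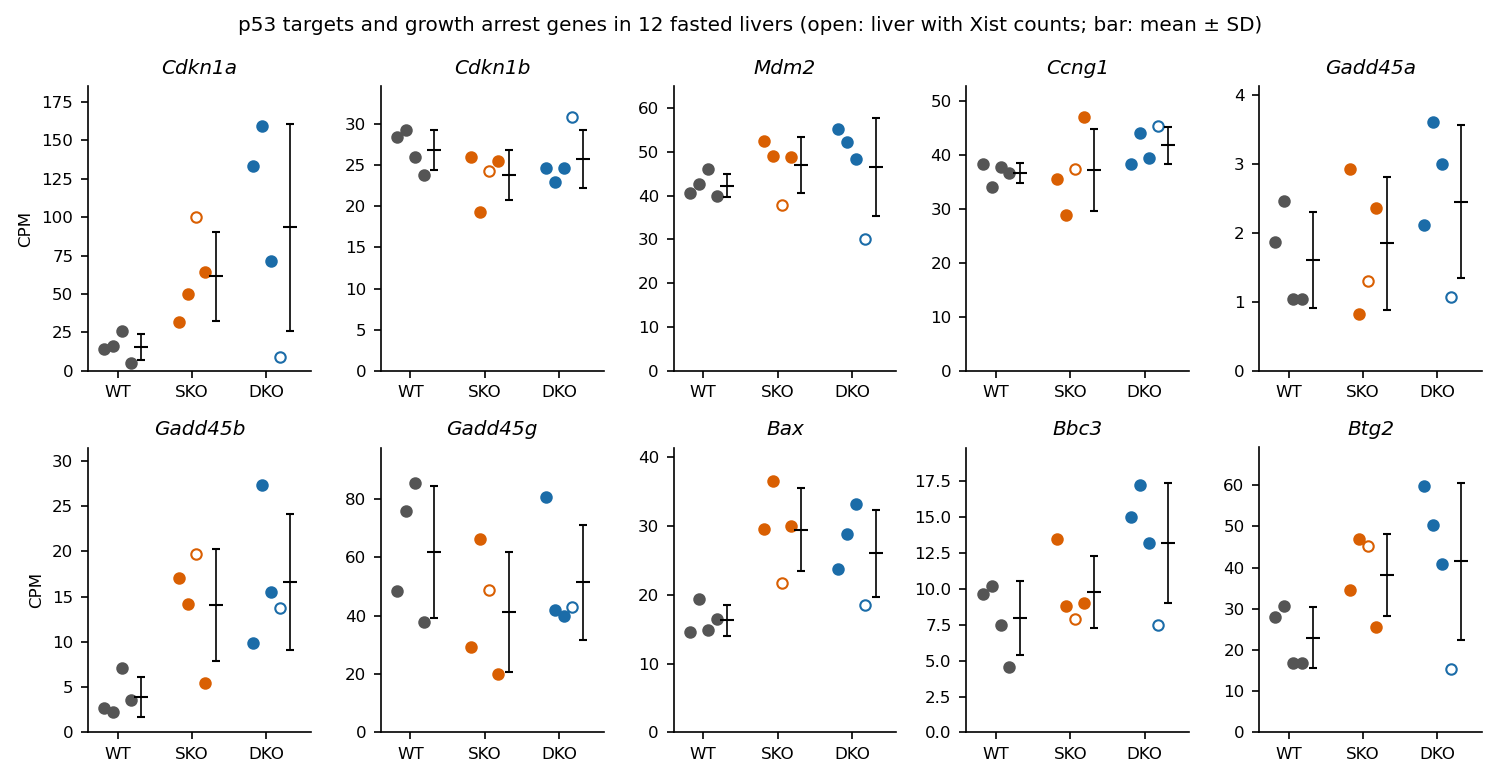
CPM (vertical axis, from 0) of each of the 10 genes in every liver, by genotype on the horizontal axis. Points are livers, open points are the 2 livers with Xist counts, and bars give the mean ± SD of 4 livers; Cdkn1a ranged from 5.44 to 159 CPM, with the open DKO point at 8.84 CPM among the WT livers.

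Cdkn1a encodes p21, the inhibitor of cyclin-dependent kinases through which p53 arrests cells in G1. Its levels were 14.0, 16.2, 25.9 and 5.44 CPM in WT livers and 31.7, 50.0, 99.8 and 64.3 CPM in SKO livers. Every SKO liver lay above every WT liver, as was the case, in the higher direction, for 17.2% of all genes tested. The mean rose from 15.4 ± 8.40 to 61.5 ± 28.9 CPM (SD, n = 4 each), a log2 fold change of 2.00 with a standard error (SE) of 0.42 and an adjusted p of 0.00367 by edgeR. The highest SKO value belonged to the liver with Xist counts, and without it the log2 fold change was 1.67 (SE 0.39, adjusted p = 0.00713 by edgeR). In all 13 distinct alternative fits Cdkn1a passed the threshold, with adjusted p from 1.54e-07 to 0.0407. Cdkn1b encodes p27, the sister inhibitor, which is held largely by protein turnover. It lay at 28.4, 29.2, 25.9 and 23.7 CPM in WT and at 26.0, 19.3, 24.3 and 25.5 CPM in SKO livers. The groups overlapped, and the difference of −0.18 on the log2 scale (SE 0.13) did not pass the test (adjusted p = 0.339 by edgeR).

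The Gadd45 genes encode small stress sensors that bind p38 pathway kinases, CDK1 and PCNA. Gadd45b lay at 2.70, 2.21, 7.15 and 3.57 CPM in WT livers and at 17.0, 14.2, 19.7 and 5.45 CPM in SKO livers. SKO replicate 4 fell inside the WT range and the other 3 SKO livers lay above it. The log2 fold change was 1.85 (SE 0.42, adjusted p = 0.00567 by edgeR), and all 13 alternatives kept it past the threshold, with adjusted p from 5.43e-06 to 0.0217. Gadd45a, the classical p53 target of the family, was the lowest of the 10 genes, at 16 to 59 counts a library, with 1.87, 2.47, 1.04 and 1.04 CPM in WT and 2.92, 0.819, 1.30 and 2.36 CPM in SKO livers. Its groups overlapped fully (log2 fold change 0.19, SE 0.43, adjusted p = 0.783 by edgeR). Gadd45g lay at 48.3, 75.9, 85.4 and 37.6 CPM in WT and at 29.3, 66.3, 48.7 and 20.1 CPM in SKO livers. The mean of SKO livers was the lower one, but the groups overlapped and the log2 fold change of −0.59 (SE 0.35) did not pass (adjusted p = 0.226 by edgeR).

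Bax and Bbc3 act in apoptosis. Bax, whose product opens the outer mitochondrial membrane, lay at 14.6, 19.4, 14.8 and 16.4 CPM in WT and at 29.6, 36.5, 21.7 and 30.0 CPM in SKO livers. The groups did not overlap, and the lowest SKO value belonged to the liver with Xist counts. The log2 fold change was 0.85 (SE 0.17, adjusted p = 0.00247 by edgeR), past the threshold in all 13 alternatives with adjusted p from 1.34e-04 to 0.0121. Bbc3 encodes PUMA, a BH3-only protein that frees BAX from its inhibitors. It lay at 9.67, 10.2, 7.48 and 4.56 CPM in WT and at 13.5, 8.80, 7.90 and 9.04 CPM in SKO livers. Only SKO replicate 1 exceeded the WT range, and the log2 fold change was 0.29 (SE 0.26, adjusted p = 0.433 by edgeR).

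Mdm2 and Ccng1 belong to the feedback on p53: MDM2 degrades it, and cyclin G1 acts on MDM2 through a phosphatase. Mdm2 lay at 40.6, 42.6, 46.0 and 40.0 CPM in WT and at 52.5, 49.0, 37.8 and 48.7 CPM in SKO livers. The 3 SKO livers with Y-linked counts lay above the WT range and the liver with Xist counts lay below it, and the log2 fold change of all 4 was 0.15 (SE 0.13, adjusted p = 0.403 by edgeR). Without that liver it was 0.25 (SE 0.11, adjusted p = 0.123 by edgeR). Ccng1 lay at 38.4, 34.1, 37.7 and 36.7 CPM in WT and at 35.5, 28.9, 37.5 and 47.1 CPM in SKO livers. The log2 fold change was 0.016 (SE 0.14, adjusted p = 0.944 by edgeR), and its sign turned with RLE size factors (−0.0040). Trp53, the gene of p53 itself, was no member of the 10 and lay at 17.8 to 23.5 CPM in WT and 22.7 to 28.5 CPM in SKO livers. Its log2 fold change was 0.41 (SE 0.13, adjusted p = 0.0341 by edgeR), and 6 of the 13 alternatives kept it past the threshold. The call was lost without WT replicate 1, 3 or 4 (adjusted p = 0.0961, 0.108 and 0.120) and without SKO replicate 1, 2 or 4 (adjusted p = 0.0571, 0.0624 and 0.0748 by edgeR), and in the fit without the filter on low counts (adjusted p = 0.0561). Mdm4, which encodes the partner of MDM2, had a log2 fold change of −0.12 (SE 0.13, adjusted p = 0.550 by edgeR).

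Btg2 encodes an antiproliferative protein that recruits the CCR4-NOT deadenylase to messenger RNA. It lay at 27.9, 30.6, 16.8 and 16.8 CPM in WT and at 34.6, 46.9, 45.3 and 25.7 CPM in SKO livers. SKO replicate 4 lay within the WT range and the other 3 SKO livers above it. The log2 fold change was 0.72 (SE 0.24, adjusted p = 0.0390 by edgeR). This call was the least firm of the 4, since 7 of the 13 alternatives kept it. It was lost without WT replicate 3 or 4 (adjusted p = 0.105 and 0.115) and without SKO replicate 1, 2 or 3 (adjusted p = 0.0502, 0.106 and 0.0801 by edgeR), and in the fit of all 12 livers (adjusted p = 0.144).

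Without SKO replicate 3, the liver with Xist counts, 3 of the 10 genes passed in SKO against WT, all as higher, while 32.5% of all genes did, 17.3% as higher. Beside Cdkn1a these were Gadd45b (log2 fold change 1.65, SE 0.43, adjusted p = 0.0127 by edgeR) and Bax (0.98, SE 0.15, adjusted p = 5.08e-04 by edgeR). Trp53 also passed, at 0.48 (SE 0.14, adjusted p = 0.0193 by edgeR). Btg2 was at 0.63 (SE 0.26) and did not pass. Among the genes that had not passed with all livers, none passed here, with Gadd45a at 0.33 (adjusted p = 0.633) and Gadd45g at −0.67 (adjusted p = 0.204 by edgeR). Bbc3 was at 0.39 (adjusted p = 0.314), Cdkn1b at −0.18 (adjusted p = 0.375) and Ccng1 at 0.017 (adjusted p = 0.949 by edgeR).

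**Figure D2:**
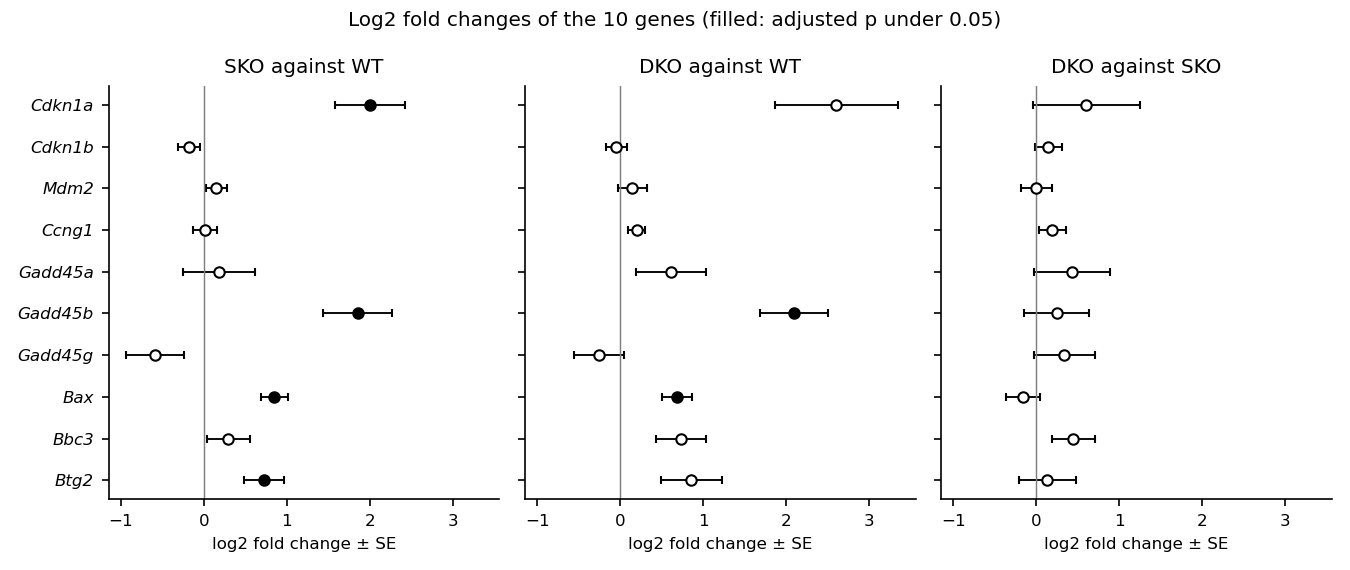
Log2 fold change ± SE (horizontal axis) of the 10 genes (vertical axis) in the 3 comparisons, from edgeR on 8 livers each. Filled points passed an adjusted p of 0.05, which holds for 4 genes in SKO against WT, 2 in DKO against WT and 0 in DKO against SKO.

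The same genes were then compared between DKO and WT livers. This comparison uses the same 4 WT livers, so it is not independent of the one above. Gadd45b and Bax passed the test, both as higher, which makes 2 of the 10 genes, whereas 10.5% of all 14448 genes tested passed, 6.06% as higher. Gadd45b lay at 9.89, 27.3, 15.5 and 13.8 CPM in DKO livers, all above the WT livers, as was the case for 7.72% of all genes tested. Its log2 fold change was 2.10 (SE 0.41, adjusted p = 0.0187 by edgeR). Bax lay at 23.8, 28.8, 33.1 and 18.5 CPM, and DKO replicate 4 was the 1 liver inside the WT range (log2 fold change 0.69, SE 0.18, adjusted p = 0.0426 by edgeR). Trp53 lay at 31.0, 30.9, 30.5 and 24.1 CPM, above all WT livers (log2 fold change 0.58, SE 0.13, adjusted p = 0.0268 by edgeR).

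Cdkn1a had the largest difference of the 10 genes but did not pass. It lay at 133, 159, 71.7 and 8.84 CPM in DKO livers, a mean of 93.3 ± 67.3 CPM (SD, n = 4). The first 3 were above every WT liver, and DKO replicate 4, the liver with Xist counts, fell among the WT livers. The log2 fold change was 2.61 (SE 0.74, adjusted p = 0.0531 by edgeR), and 5 of 13 distinct alternatives took it past the threshold, with adjusted p from 2.14e-04 to 0.135. Btg2 lay at 59.7, 50.4, 40.8 and 15.5 CPM and Bbc3 at 15.0, 17.2, 13.2 and 7.45 CPM. In both genes the first 3 DKO livers lay above all WT livers and DKO replicate 4 did not. Mdm2, at 55.1, 52.3, 48.3 and 30.2 CPM, had the same order, with DKO replicate 4 the lowest of all 12 livers. With all DKO livers Btg2, Bbc3 and Mdm2 did not pass. The log2 fold change was 0.86 for Btg2 (SE 0.37, adjusted p = 0.157 by edgeR). It was 0.74 for Bbc3 (SE 0.30, adjusted p = 0.138) and 0.15 for Mdm2 (SE 0.17, adjusted p = 0.609 by edgeR).

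The remaining genes differed little or overlapped. Ccng1 lay at 38.4, 44.2, 39.4 and 45.3 CPM in DKO livers, just above the WT range, with a log2 fold change of 0.20 (SE 0.10, adjusted p = 0.224 by edgeR). Cdkn1b lay at 24.7, 22.9, 24.6 and 30.9 CPM (log2 fold change −0.043, SE 0.13). Its highest value of all 12 livers was in DKO replicate 4. Gadd45a lay at 2.12, 3.61, 3.00 and 1.06 CPM, which overlapped WT (log2 fold change 0.61, SE 0.42, adjusted p = 0.364 by edgeR). Gadd45g lay at 80.6, 42.0, 40.0 and 42.8 CPM, also within the spread of WT (log2 fold change −0.25, SE 0.30, adjusted p = 0.623 by edgeR).

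DKO replicate 4 decided how many of the 10 genes passed. Without it 6 passed, all as higher: Cdkn1a (log2 fold change 2.99, adjusted p = 2.14e-04), Gadd45b (2.17, adjusted p = 0.00169), Bax (0.82, adjusted p = 0.00124), Btg2 (1.13, adjusted p = 0.00232), Bbc3 (0.93, adjusted p = 0.0112) and Mdm2 (0.30, adjusted p = 0.0313 by edgeR). The other genes did not pass: Gadd45a was at 0.85 (adjusted p = 0.0846), Ccng1 at 0.15 (adjusted p = 0.254), Cdkn1b at −0.15 (adjusted p = 0.323) and Gadd45g at −0.18 (adjusted p = 0.692 by edgeR). Trp53 was at 0.65 (adjusted p = 0.00141 by edgeR). The share of all genes that passed rose alongside, from 10.5% to 35.9%, of which 18.4% were higher. Without any other of the 8 livers, 0 or 1 of the 10 genes passed, and 244 to 719 genes passed in all. The log2 fold changes of Gadd45b and Bax stayed at 1.76 to 2.55 and 0.55 to 0.82 whichever liver was left out, but most removals ended their calls. Gadd45b lost its call without WT replicate 1, 2 or 4 (adjusted p = 0.0622, 0.0610 and 0.0599) and without DKO replicate 2 or 3 (adjusted p = 0.0518 and 0.0564 by edgeR). Bax lost it without each liver but DKO replicate 4 (adjusted p = 0.0750 to 0.123 by edgeR), and Trp53 without WT replicate 1, 3 or 4 or DKO replicate 1, 2 or 3 (adjusted p = 0.0688 to 0.0869 by edgeR). That liver had Xist counts and the lowest Atf3 level of the 12, at 0.266 CPM. It also stood apart from the other DKO livers across all genes, with a chi-square per degree of freedom of 194 to 231 against each of them, where they gave 27.7 to 33.3 among themselves. Its macrophage markers summed to 512 CPM, against 145 to 222 CPM in the others, and its hepatocyte markers to 93617 CPM, against 41571 to 50593 CPM. Most of the hepatocyte sum was albumin (Alb), at 74165 CPM against 24688 to 28454 CPM. Ttr, Serpina1a, Asgr1 and Tat were also higher there than in the other DKO livers. Hnf4a and Cps1 lay among them, and Apoa1 lay below them, at 5135 CPM against 7816 to 9059 CPM. The part of these differences in the result was not tested.

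**Figure D3:**
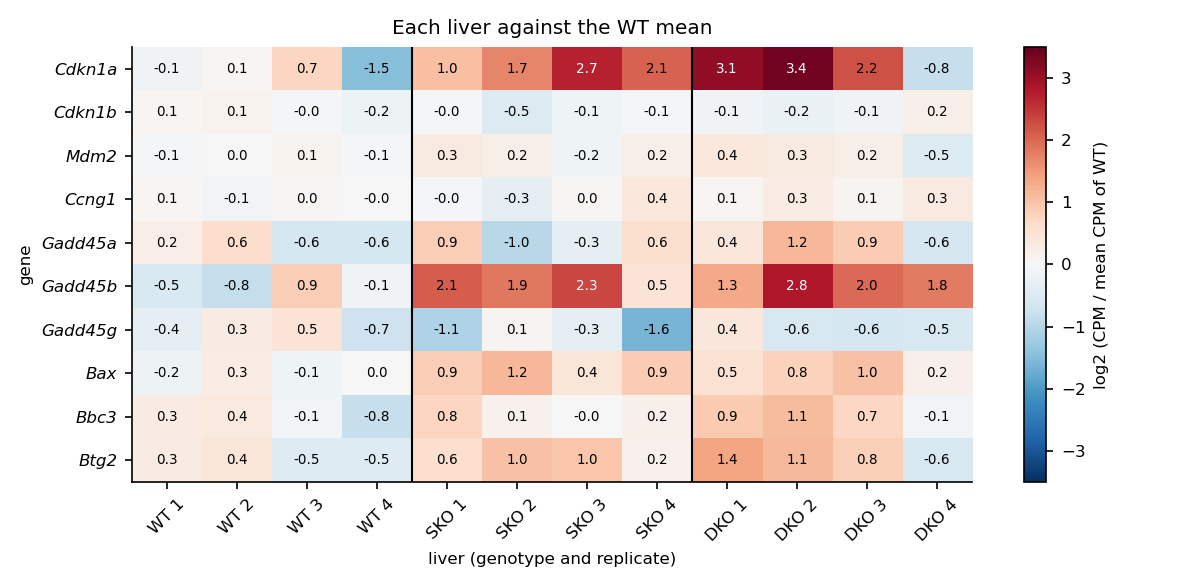
Log2 ratio of the CPM in each liver to the mean CPM of WT livers (colour, number in each cell) for the 10 genes (rows) in the 12 livers (columns). DKO replicates 1, 2 and 3 had 7, 8 and 8 of the 10 genes above the WT range and 0, 1 and 0 below it (of 13904 genes, 33.9%, 36.7% and 34.6% were above and 33.2%, 31.3% and 33.7% below), and DKO replicate 4 had 3 above and 2 below (25.2% and 29.4%).

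What loss of Atf3 added on the Cpt2 knockout was read from DKO against SKO. None of the 10 genes passed (edgeR, adjusted p under 0.05), none had an unadjusted p under 0.05, and none passed in DESeq2. Of all 14363 genes tested 3 passed, which is 0.0209%, and 932 genes, or 6.49%, had an unadjusted p under 0.05. The log2 fold changes of the 10 genes ran from −0.16 for Bax to 0.60 for Cdkn1a. Cdkn1a also had the largest SE, 0.65, and an adjusted p of 0.934 by edgeR. The next largest log2 fold change was that of Bbc3, at 0.45 (SE 0.26, adjusted p = 0.828 by edgeR).

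Among the 6 livers with Y-linked counts, Cdkn1a lay at 71.7 to 159 CPM in DKO and at 31.7 to 64.3 CPM in SKO livers. The groups did not overlap, as was the case, in the higher direction, for 6.09% of all genes in that fit. The log2 fold change was 1.32 (SE 0.30), but the adjusted p was 0.186 by edgeR (range over the 14 alternatives 0.186 to 1.00), and 0.146% of all genes passed. In the same 6 livers Cdkn1a, Bbc3 and Btg2 had an unadjusted p under 0.05 in edgeR (9.24e-04, 0.0256 and 0.0475), which is 3 of the 10 genes, as had 6.93% of all genes in that fit. The log2 fold changes of Bbc3 and Btg2 were 0.54 (SE 0.21) and 0.50 (SE 0.23), with overlapping groups and adjusted p of 0.636 and 0.713 by edgeR. For Btg2 the value with all 8 livers was 0.13. The other 7 genes ran from −0.15 for Bax to 0.53 for Gadd45a, with adjusted p from 0.903 to 0.987 by edgeR. With SKO replicate 3, which had 99.8 CPM of Cdkn1a, put back, the Cdkn1a groups overlapped again (log2 fold change 0.98, SE 0.35, adjusted p = 0.532 by edgeR). Trp53 lay at 30.5 to 31.0 CPM in these DKO livers, above all SKO livers, with a difference of 0.17 on the log2 scale (SE 0.14, adjusted p = 0.910 by edgeR).

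Levels between genes were read from the deposited FPKM, which correct for gene length. Gadd45g was the highest of the 10 in each genotype, with mean levels of 55.1 ± 20.1 FPKM (WT), 36.2 ± 18.4 FPKM (SKO) and 45.3 ± 17.4 FPKM (DKO; SD, n = 4). Gadd45a was the lowest, at 0.951 ± 0.409, 1.08 ± 0.557 and 1.43 ± 0.630 FPKM. Within the Gadd45 family the level of Gadd45b, at 2.58 ± 1.48 FPKM in WT, was between those of the other genes and reached 9.16 ± 4.04 FPKM in SKO livers. Cdkn1a moved from rank 7 of the 10 in WT, at 4.53 ± 2.48 FPKM, to rank 3 in SKO, at 17.9 ± 8.40 FPKM, and rank 2 in DKO, at 27.0 ± 19.4 FPKM. Ccng1 and Bax stood next to each other in WT, at 10.9 ± 0.563 and 10.8 ± 1.48 FPKM, within their spread. In SKO livers Bax was at 19.3 ± 4.03 and Ccng1 at 10.9 ± 2.14 FPKM.

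The genes also differed in how much they varied. The highest of the 12 livers exceeded the lowest 29.3-fold for Cdkn1a and 12.3-fold for Gadd45b on the CPM scale. For Cdkn1b, Ccng1 and Mdm2 it did so 1.60-fold, 1.63-fold and 1.83-fold. The genes whose log2 CPM over the 12 livers lay closest to that of Cdkn1a, after each gene was centred, were Myc, a growth regulator and immediate-early gene, Chka, a choline kinase, and Adamts1, a secreted protease (root mean square difference 0.65, 0.65 and 0.66 among 13904 genes). For Gadd45b they were Dgkh, Maff and Grpel2 (0.50, 0.51 and 0.51). For Gadd45a they were Ocstamp, Cplane1 and Tbc1d31 (0.35, 0.36 and 0.36) and for Gadd45g Yjefn3, Cep85 and Gm14137 (0.33, 0.37 and 0.38). A small difference is easily reached by a gene that varies little, so the values of the 4 genes are not comparable with each other.

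Other genes of the same pathways were counted in SKO against WT, where 32.1% of all genes passed. Of 30 other p53 targets tested, 6 rose and 2 fell. They included Aen, an exonuclease (log2 fold change 0.72), Plk3, a stress kinase (1.33), and Tnfrsf10b, a death receptor (2.42), all higher, and Dglucy, which was lower (−0.75). Of 11 genes tested from the list of p53 and its regulators, Trp53 was the 1 that passed. Of 11 genes of the BCL2 family other than Bax and Bbc3, 3 fell and none rose. These were the BH3-only gene Bmf (−2.60), Bcl2l1, which encodes the survival protein BCL-XL (−0.87), and Bok (−1.09), while Mcl1 had a log2 fold change of 0.35 (adjusted p = 0.0970 by edgeR).

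Of 14 further CDK inhibitors and antiproliferative genes, 2 rose and 5 fell. Btg3, a relative of Btg2, rose (1.69) and so did Gas6 (1.46), a ligand of the TAM receptors. Gas1 (−2.53) and Gas2 (−1.43), named for their rise in growth-arrested fibroblasts, fell. The list of G1 cyclins and CDKs, the targets of p21 and p27, also holds Pcna, which is neither. Of 9 genes tested from it, Cdk4 alone passed, as higher (1.16). Ccnd1, which encodes cyclin D1, had a log2 fold change of 0.83 (adjusted p = 0.0997 by edgeR). Proliferation markers were low throughout: their sum was 6.96 to 11.4 CPM in WT and 4.21 to 6.34 CPM in SKO livers, and of 5 tested Birc5 (−2.46) and Aurka (−1.10) fell. Of 11 immediate-early genes 4 rose and 2 fell, with Klf6 (3.09), Myc (2.09), Ier3 (2.14) and Jun (1.31) higher. In DKO against WT the other p53 targets gave 3 higher and 0 lower of 30, among 10.5% of all genes. In DKO against SKO no gene of any of these lists passed in edgeR.

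**Figure D4:**
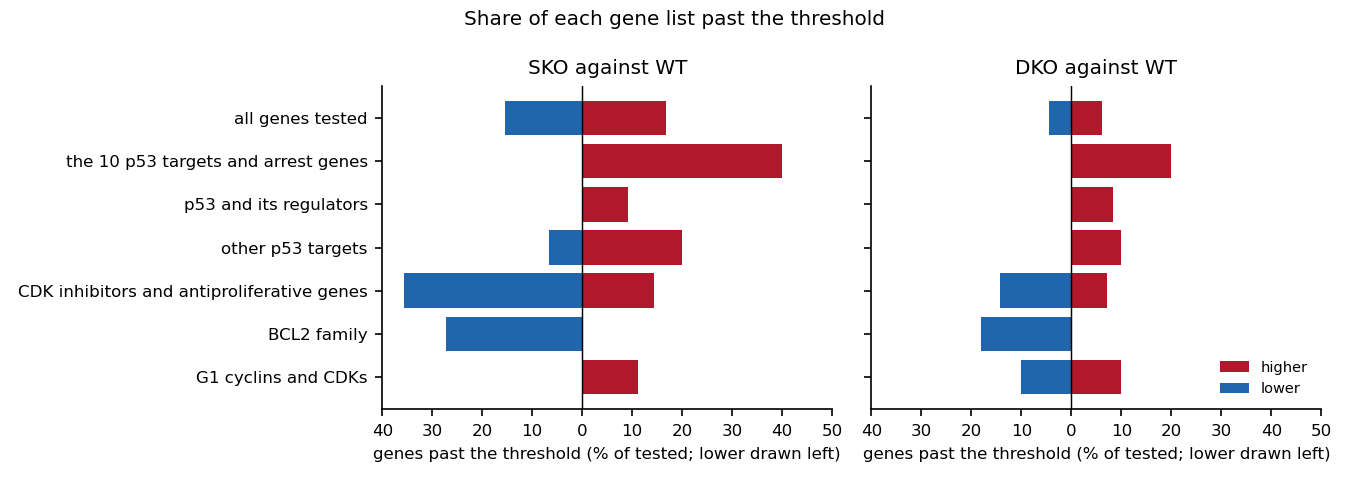
Share of the genes tested in each list that passed an adjusted p of 0.05 (horizontal axis, %; higher drawn to the right, lower to the left), in SKO against WT and DKO against WT. In SKO against WT the 10 genes gave 4 higher and 0 lower, the BCL2 family 0 higher and 3 lower of 11, and all genes 16.7% higher and 15.4% lower.

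Markers of other cell types moved with genotype in part. The 8 stellate cell markers summed to 175 to 201 CPM in WT, 234 to 329 CPM in SKO and 216 to 279 CPM in DKO livers, with 1 of 8 higher in SKO (Dcn). Dcn made up most of the stellate sum, with a mean of 116 CPM in WT and 178 CPM in SKO livers. Of the 8, 2 had a negative log2 fold change in SKO against WT. The 7 cholangiocyte markers summed to 42.4 to 51.5 CPM in WT, 21.1 to 27.2 CPM in SKO and 22.4 to 44.2 CPM in DKO livers, with 2 of 5 tested lower in SKO. The sums of the 10 macrophage markers overlapped, at 248 to 498 CPM in WT, 231 to 561 CPM in SKO and 145 to 512 CPM in DKO livers, and 1 of 9 tested, Cd68, rose in SKO. Those of the 8 endothelial markers also overlapped, at 211 to 444, 284 to 360 and 240 to 360 CPM. The 8 hepatocyte markers summed to 73864 to 91989 CPM in WT and 40258 to 70201 CPM in SKO livers, and 3 of 8 fell. In DKO livers they summed to 50593, 47743, 41571 and 93617 CPM, so that 3 livers lay below the WT livers and DKO replicate 4 above them. Albumin made up most of the hepatocyte sum in every liver. T and B lymphocyte markers summed to at most 6.98 CPM and neutrophil markers to at most 5.25 CPM in every liver, and the neutrophil genes Mpo and Ly6g had 0 counts in 10 and 9 of the 12 livers. The part of cell composition in the changes of Cdkn1a, Gadd45b, Bax and Btg2 was not tested.

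Of the 10 genes, 3 share bases with an annotated neighbour. Cdkn1a overlaps 1700023B13Rik and Gadd45a overlaps E230016M11Rik, both on the opposite strand, and Bax overlaps Gm45808 on its own strand. These neighbours had 0 to 44, 3 to 59 and 0 to 4 counts per library. Whether the counting used strand is not given in the sources used here, so for Gadd45a, the lowest of the 10, reads of the neighbour may be part of its value. The deposited table places Cdkn1a on chromosome 17 from 29309950 to 29319701 (plus strand) and Bax on chromosome 7 from 45111121 to 45116322 (minus strand). These starts differ from those of GRCm38 in GENCODE M21, as they do for all 10 genes, although the processing notes name GRCm38, so the build of the deposited positions is not settled here.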

How the data were processed

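RNA was extracted from whole liver with TRIzol and RNeasy columns and sequenced at a commercial provider. The authors deposited raw gene counts and FPKM (fragments scaled to gene length and library size) for 12 libraries. The submitters' processing notes name HISAT2 and GRCm38 (mm10). The counter, its strand setting and the annotation release are not given in the sources used here. The authors' own comparisons (fold changes and p-values) were not used.

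For a comparison of 2 genotypes, edgeR 4.0.16 (R 4.3.3) was run on their 8 livers alone: TMM normalization, filterByExpr, quasi-likelihood test, two-sided, Benjamini-Hochberg adjustment over all genes tested, threshold 0.05. The SE is the log2 fold change divided by the square root of F. CPM used TMM library sizes over all 12 livers, and deposited FPKM were used for levels between genes. A p-value sets the difference of 2 group means against the variation between livers within the groups, which edgeR moderates over all genes tested. Nothing says how the animals of a group were related, and the p-values treat the livers as independent. The script was tested on simulated data with known changes. No 2 libraries of a group agreed within sampling noise.

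Alternatives were DESeq2 1.42.0, RLE size factors, no filter on low counts, 1 model of 12 livers, a replicate block, only livers with Y-linked counts, and each liver left out. The 10 genes and the other gene lists were chosen with earlier results of these data known. All 10 genes are named; of each other list, the 4 genes with the smallest p in SKO against WT at most, with Trp53 and Mdm4 always. Mpo and Ly6g were named after their values were seen, as the markers at 0 counts in most livers. Pcna was named to describe its list. The hepatocyte markers were named, after their values were seen, to show which of them followed their sum. Upstream sequences and start sites are from RefSeq (GRCm38.p6); all 10 genes matched.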

Additional observations from a re-analysis of the deposited data

Results flagged for a closer look

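Among the 36 sets of 4 livers checked, 2 held a liver whose gap to the others was above the critical value of Dixon's test, where chance gives about 1 in 20 sets, or 1.8 here. Gadd45g was 80.6 CPM in DKO replicate 1, while the other DKO livers lay at 40.0 to 42.8 CPM. Trp53 was 24.1 CPM in DKO replicate 4, while the other DKO livers lay at 30.5 to 31.0 CPM.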

How the results depend on the processing

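In SKO against WT the 4 calls became 3 to 4 when each liver was left out, and 3617 to 4711 genes passed against 4576. In DKO against WT 1510 genes passed. The count was 2508 with DESeq2, 691 with the replicate block and 5253 with only the livers with Y-linked counts, where 6 of the 10 genes passed. Leaving out each liver gave 244 to 5253 genes and 0 to 6 of the 10. In DKO against SKO, against 3 genes, 91 passed with DESeq2, 35 without the filter, 0 with the block, 21 in livers with Y-linked counts and 0 to 15 with a liver left out, and 0 of the 10 in each. The cause was not tested.

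Changes near 0 turned sign. Ccng1 in SKO against WT was −0.0040 with RLE size factors and −0.0020 with the block. Mdm2 in DKO against SKO was −0.019 with DESeq2, −0.0072 with RLE size factors, −0.025 without the filter and −0.019 with the block. With a liver left out, SKO against WT ran from −0.11 to 0.12 for Ccng1 and from −0.11 to 0.45 for Gadd45a. DKO against WT ran from −0.15 to 0.017 for Cdkn1b and from −0.037 to 0.10 for Mdm4. DKO against SKO ran from −0.093 to 0.15 for Mdm2, −0.080 to 0.46 for Gadd45b and −0.096 to 0.41 for Btg2.

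Livers of the same replicate number did not deviate together (r from −0.34 to 0.093), so no pairing by number was seen. With 4 livers in a group this cannot exclude a shared litter or batch. With the replicate block, Gadd45g passed in SKO against WT (−0.66, adjusted p = 0.0102), Cdkn1a (adjusted p = 0.0497) and Bbc3 (adjusted p = 0.0440) passed in DKO against WT, and Bax (adjusted p = 0.0753) and Trp53 (adjusted p = 0.0518 by edgeR) did not. In DKO against WT Cdkn1a also passed with DESeq2 (adjusted p = 0.0191), without the filter (0.0155) and in the model of 12 livers (0.0273). At this depth Gadd45a, at about 1 FPKM, is the lowest of the 10 genes, and Cdkn1a has the largest SE in both comparisons with DKO livers (0.74 and 0.65).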
